A study of Homo sapiens with 6 samples.

Results

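The nuclear genes for subunits of the oxidative phosphorylation complexes were followed in SKOV3 cells, a long-established line from a human ovarian cancer. Members were the protein-coding genes whose symbol in the array annotation begins NDUFA, NDUFB, NDUFC, NDUFS, NDUFV, UQCR, ATP5F, ATP5M, ATP5P or COX4 to COX8, or is SDHA, SDHC or SDHD, and that at least 1 probe set names alone. Assembly factors were left out, as were 5 symbols of pseudogenes, antisense or divergent transcripts (ATP5MC2P1, COX6A1P1, NDUFB2-AS1, NDUFV1-DT and NDUFV2-AS1). The rule gave 76 of the 19775 genes on the array: 33 of complex I, 3 of complex II, 6 of complex III, 17 of complex IV and 17 of complex V. SDHB and UQCRFS1 were not analysed here, and NDUFS5, NDUFS8, NDUFC2 and UQCRH were not used because their probe sets also name another gene. Where a member had several probe sets, the brightest one on average stood for it.

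In 1 group (3 arrays) the cells received a precursor of miR21, at 5 nM, and were harvested 24 h after transfection began. In the other (3 arrays) they received a negative control precursor for the same time. Both groups were the same line in the same serum-containing medium, no untransfected cells were analysed here, and the labels do not say whether the arrays of a group came from separate cultures. Every p-value below is therefore set against the variation among these arrays alone, and that variation may be technical. In RNA from whole cultures, fewer cells expressing a gene and less RNA per cell cannot be told apart. Replicate numbers 1 to 3 occur in both groups. The study's title ties miR21 to taxol resistance and APAF1, and names no question about respiration. The mature strand that RefSeq lists for the gene (GRCh38.p14, chr17:59841273-59841294, plus strand) is printed because it is the agent that separates the groups, with the seed, bases 2 to 8, in capitals.
hsa-miR-21-5p: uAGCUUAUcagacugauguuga

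Oxidative phosphorylation takes place in the inner mitochondrial membrane. Complexes I and II pass electrons from NADH and succinate to ubiquinone, complex III passes them on to cytochrome c and complex IV to oxygen. Complexes I, III and IV pump protons, and complex V, the ATP synthase, uses the returning protons to make ATP. Most subunits are nuclear genes, while a core of hydrophobic ones is encoded in mitochondrial DNA. Complex II is wholly nuclear encoded and also acts in the tricarboxylic acid cycle.

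The deposited scaling gave all 6 arrays a trimmed mean signal of 500.1. A change in the same proportion across all probe sets would thus be removed, but the array medians were not made equal. The median signal was 125 and 117 on the 2 arrays of replicate number 1 and 55.2 to 61.9 on the other 4. The ratio of 3' to 5' control probe sets lay between 0.899 and 1.07 for GAPDH, and for beta-actin between 1.29 and 1.36 in number 3, 1.79 and 1.96 in number 1 and 2.88 and 3.32 in number 2. Of 10 epithelial and ovarian carcinoma markers, 8 were above the signal filter, which is the median of all probe sets (65.5), and WT1 and MUC16 were below it. Their summed signal was 57083 to 110392 on control and 63476 to 93586 on miR21 arrays. Of the other cell types, 0 of 4 leukocyte, 3 of 7 fibroblast and 1 of 3 endothelial markers were above it. Their summed signals were 76.0 to 249.9, 463 to 1268 and 73.9 to 652 on control arrays and 25.1 to 166, 394 to 1396 and 63.3 to 500.3 on miR21 arrays.

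Most subunit genes differed little between miR21 and control, and a few single genes stood apart. Of the 76 members, 72 passed the filter, and of these 29 were higher with miR21 and 43 lower. Their median log2 difference was -0.036, against -0.010 over the 12206 genes tested. The difference was smaller than 0.25 log2 units in 55 of 72 members (76.4%), against 50.9% of all genes tested, and larger than 0.5 in 3 members (4.17%), against 21.2%. Among these 3, COX6B2 passed the filter only through its mean on the miR21 arrays. The upper quartile of signal over all probe sets was passed by 8189 of the genes tested, 70 of them members. Among these the share under 0.25 was 77.1% for members and 55.1% for all. This set is most of the genes tested, and no closer match for brightness was made. In limma 0 members passed an adjusted p of 0.05, where 0% of all genes passed, and 1 of 72 members (1.39%) had an unadjusted p under 0.05, against 2.44% of all genes. A limma fit with the number as a block called 0 members and 0.0328% of all genes, and there 9 of 72 members had an unadjusted p under 0.05 against 20.1% of all genes. The groups did not overlap for 2 members (NDUFA6 higher, UQCR10 lower), against 6.65% of all genes, and with arrays centred on their median for 0 members, against 3.3% of all genes. The sign was the same in all 3 replicate numbers for 21 members, 8 higher and 13 lower, against 41.2% of all genes. These counts use the brightest probe set. Of 32 members with another probe set above the filter, 14 had one whose mean difference took the opposite sign.

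**Figure D1:**
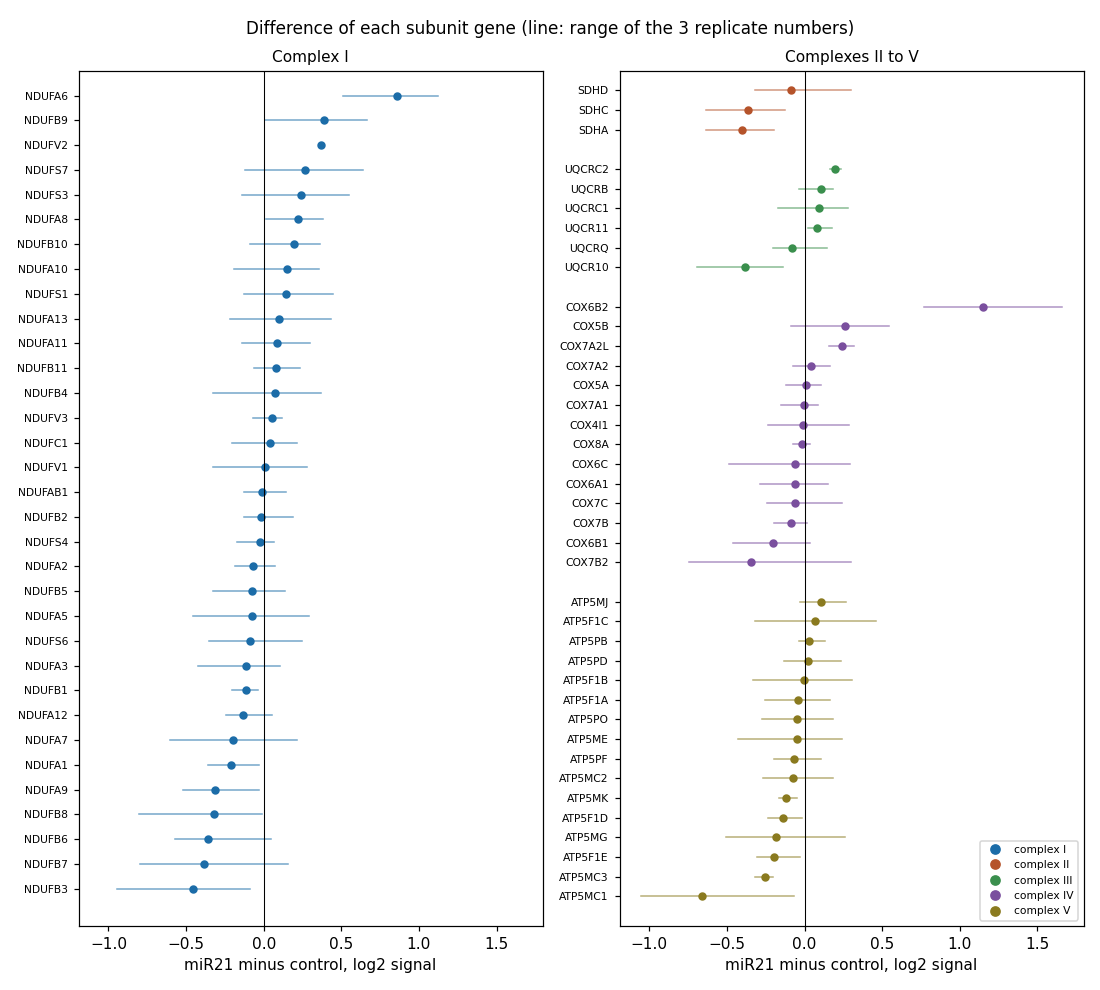
Log2 difference of miR21 minus control (horizontal axis) for each of the 72 subunit genes above the signal filter, complex I on the left and complexes II to V on the right; points are differences of the group means and lines span the differences within replicate numbers 1, 2 and 3. Most points lie within 0.25 of 0, NDUFA6 (0.86) and COX6B2 (1.15) stand on the right, and ATP5MC1 (-0.66) on the left. COX6B2 passed the filter only through its mean on the miR21 arrays.

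The complexes had medians close to each other, except for the few genes of complex II. The median log2 difference was -0.0090 over 33 genes of complex I, -0.37 over 3 of complex II, 0.087 over 6 of complex III, -0.014 over 14 of complex IV and -0.0585 over 16 of complex V. Higher with miR21 were 16 of 33, 0 of 3, 4 of 6, 5 of 14 and 4 of 16 genes. The spread of the medians over the 3 replicate numbers was 0.12 (SD, n = 3) for complex I, 0.26 for complex II, 0.13 for complex III, 0.11 for complex IV and 0.17 for complex V. So the medians of complexes I, III, IV and V differed from 0 by less than that spread, and that of complex II by more. That spread is a description and no test, and the complex II median rests on 3 genes. Without the block the SEs of SDHA and SDHC (0.42 and 0.52) were larger than the sizes of their differences (-0.40 and -0.37). Differences between complexes were not tested. Leaving out 1 array moved the median over members between -0.22 (without the control array of number 1) and 0.21 (without the miR21 array of number 1). When probe sets of the _x_at and _s_at types were left out, the complex II median was 0.35, over the 2 genes then left. With arrays centred on their median the list median was 0.063 and that of all genes 0.089, so the sign of the members' median depends on the scaling.

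The replicate numbers went different ways for the subunits as deposited. In number 1, 30 of 72 members were higher with miR21 (median -0.054), in number 2, 49 were higher (0.14), and in number 3, 21 were higher (-0.096). Over all 12206 genes tested 5849, 6107 and 6098 were higher in the same order. In complex I the medians were -0.034, 0.14 and -0.089, in complex III 0.11, 0.17 and -0.088, in complex IV -0.032, 0.13 and -0.083, and in complex V -0.16, 0.15 and -0.15. Complex II was lower in each, with -0.63, -0.34 and -0.12. After quantile normalization the member medians were -0.069, 0.0064 and 0.0071, with 30, 37 and 37 higher, so the opposite directions of numbers 2 and 3 do not remain under that scaling. Complex II stayed lower in all 3 numbers under it, with -0.76, -0.36 and -0.067.

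**Figure D2:**
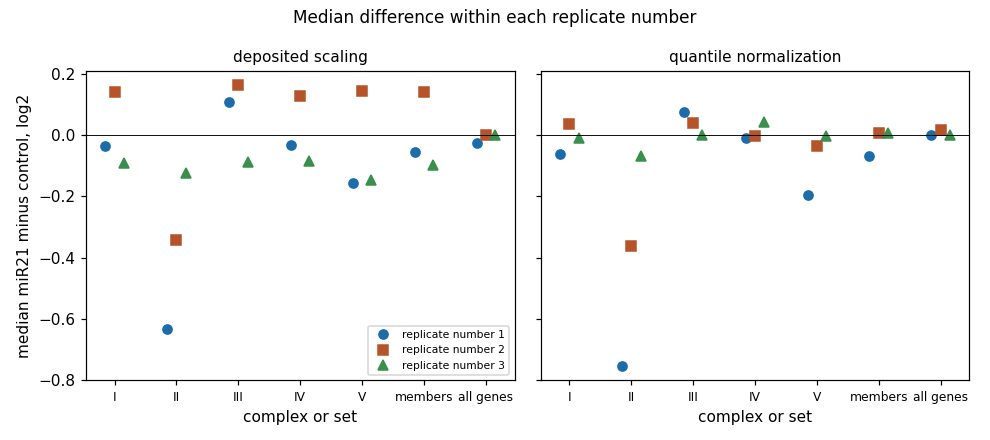
Median log2 difference of miR21 minus control (vertical axis) within replicate numbers 1, 2 and 3 (symbols) for the genes of complexes I to V, all 72 members and all genes tested, with the deposited scaling on the left and after quantile normalization on the right. On the left most number 2 medians lie above 0 and number 3 medians below it, on the right both lie near 0, and complex II lies below 0 in each number on both sides.

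In complex I, NDUFA6 was the member with the smallest p. It encodes an accessory subunit of the LYR family on the matrix arm and lies at chr22:42085526-42090772 in GRCh38.p14. Its signal was 3736, 3984 and 5229 on control arrays and 7218, 8671 and 7436 on miR21 arrays, for replicate numbers 1, 2 and 3. All 3 miR21 arrays lay above all 3 control arrays. The log2 difference was 0.86 (SE 0.27), or 1.82-fold, and it did not pass limma (unadjusted p = 0.0129, adjusted p = 0.9999). With the block the SE was 0.16 and the adjusted p 0.0939 in limma. By exact permutation of the arrays the two-sided p was 0.1, the smallest possible with 3 against 3. The other NDUFA6 probe set had signals of 1239, 1672 and 1802 on control and 1757, 2814 and 2251 on miR21 arrays. Its difference was 0.53, again higher in all 3 numbers, with groups that overlapped.

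The electron input end of complex I gave smaller differences. NDUFV2, an iron-sulfur subunit of the NADH dehydrogenase module, had signals of 2469, 4731 and 4991 on control and 3216, 6122 and 6393 on miR21 arrays. Within numbers 1, 2 and 3 it differed by 0.38, 0.37 and 0.36, while the groups overlapped because both arrays of number 1 were low. The mean difference of 0.37 had an SE of 0.41 without the block and 0.13 with it (limma, adjusted p = 0.185). NDUFV1, which binds the flavin, differed by 0.0064, and a second NDUFV1 probe set below the filter was lower in all 3 numbers (-1.89, -2.36 and -2.26). NDUFS1, the large iron-sulfur subunit, differed by 0.14, NDUFS3 by 0.24 and NDUFS7 by 0.27, the last 2 being core subunits next to the quinone site. On their brightest probe sets these 3 were higher in numbers 1 and 2 and lower in number 3. A dimmer NDUFS1 probe set above the filter was higher in all 3 numbers (0.46, 0.40 and 0.28). A further one differed by 0.064, -0.23 and 1.88. NDUFAB1, the mitochondrial acyl carrier protein, differed by -0.0090.

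Among the membrane arm subunits NDUFB9 and NDUFB3 lay at opposite ends. NDUFB9, another LYR family subunit, had signals of 5879, 10550 and 14109 on control and 9337, 14774 and 14174 on miR21 arrays. Its difference of 0.39 was made in numbers 1 and 2 (0.67 and 0.49), with 0.0066 in number 3 (limma with the block, adjusted p = 0.248). NDUFB3 had signals of 3431, 4673 and 4276 on control and 2733, 2424 and 4028 on miR21 arrays. It was lower in each number (-0.33, -0.95 and -0.086) and differed by -0.45 (adjusted p = 0.232 with the block in limma). NDUFB7 differed by -0.38, at -0.79 and -0.51 for the first pair of numbers and 0.15 for number 3, and a dimmer probe set of it differed by 0.37. Over the 11 NDUFB genes 4 were higher and 7 lower, with a median of -0.074, and over the 14 genes of the matrix arm 7 were higher and 7 lower, with a median of -0.010.

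**Figure D3:**
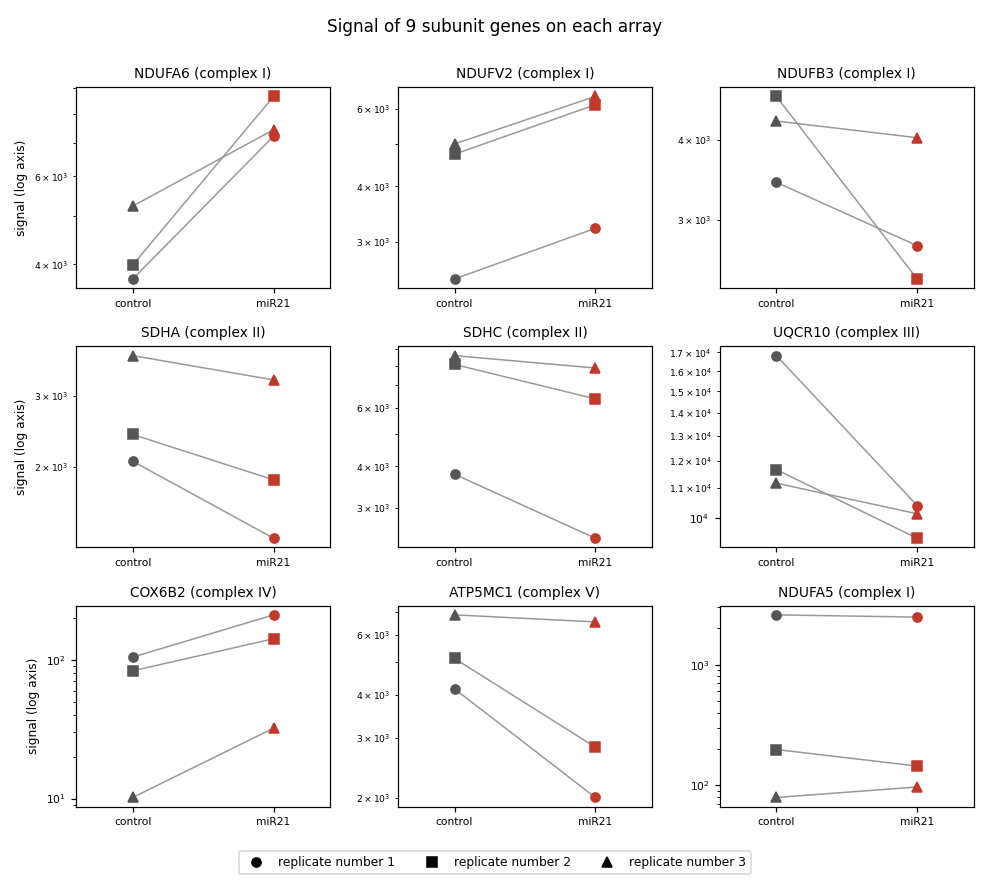
Deposited signal (vertical axis, log scale) of 9 subunit genes on the control and miR21 arrays; lines join arrays of the same replicate number. NDUFA6 is higher on every miR21 array than on any control array, UQCR10 is lower, ATP5MC1, SDHA and SDHC are lower with miR21 in each number while the groups overlap, and NDUFA5 is high on both arrays of number 1.

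Complex II genes were lower with miR21 for 2 of the 3 measured members in every replicate number. SDHA, the flavoprotein that oxidises succinate, had signals of 2068, 2408 and 3772 on control and 1334, 1860 and 3285 on miR21 arrays. It differed by -0.63, -0.37 and -0.20 in numbers 1, 2 and 3, on average by -0.40 (limma with the block, SE 0.15, adjusted p = 0.202). Its probe set is of the type that can bind related sequences, and SDHA has near-identical pseudogenes, so its reading is uncertain. SDHC, a membrane anchor subunit, had signals of 3787, 8075 and 8581 on control and 2435, 6369 and 7879 on miR21 arrays. Its difference was -0.37, with -0.64, -0.34 and -0.12 in the 3 numbers (adjusted p = 0.228 with the block in limma). Of the 7 SDHC probe sets, the 4 brightest differed by -0.40 to -0.34, and the 3 dimmer ones by 0.79, -0.52 and 0.51, so the direction of SDHC depends on the probe set. SDHD, the other anchor subunit, differed by -0.088 and was higher in number 3.

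In complex III only UQCR10 had groups that did not overlap. UQCR10, a small subunit of the cytochrome bc1 complex, had signals of 16822, 11668 and 11171 on control and 10397, 9360 and 10125 on miR21 arrays. Every control array lay above every miR21 array, and the control array of number 1 was the highest. The difference was -0.38 (SE 0.27), 1.31-fold lower, with an exact two-sided permutation p of 0.1 and an adjusted p of 0.228 with the block in limma. A dimmer UQCR10 probe set differed by -0.55, 0.70 and -1.13 in the 3 numbers, without a common sign. The core subunit genes UQCRC1 and UQCRC2 differed by 0.095 and 0.20, and UQCRC2 was higher in each number (0.24, 0.16 and 0.18). UQCRB and UQCRQ, which support ubiquinone binding and the cytochrome b subunit, differed by 0.10 and -0.079.

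The subunits of complex IV that are used in most tissues hardly differed. COX4I1 differed by -0.0077, COX5A by 0.0115, COX6A1 by -0.061 and COX7A2 by 0.040. COX5B differed by 0.26 (0.34, 0.54 and -0.090 within the 3 numbers), and COX7A2L, a gene of supercomplex assembly, was higher in each number by 0.32, 0.26 and 0.15. COX6B1 differed by -0.20. COX6B2 and COX7B2, known as testis isoforms, had the highest and the lowest difference of the complex among members above the filter. COX6B2 was dim, with signals of 105, 83.5 and 10.2 on control and 212, 142 and 32.2 on miR21 arrays. Its mean log2 signal was 5.48 on control arrays, under the filter of 6.03, and 6.63 on miR21 arrays. COX6B2 thus passed the filter only through its mean on the miR21 arrays, so its rank is no separate sign of a rise. It was higher in each number (1.01, 0.77 and 1.66), the groups overlapped, and limma with the block gave an adjusted p of 0.185. COX7B2 differed by -0.34, lower in numbers 1 and 2 and higher in number 3.

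Of the other isoforms of complex IV with restricted expression, COX7A1 passed the filter and COX4I2, COX6A2 and COX8C did not. COX7A1, the heart and muscle isoform, differed by -0.0044. COX4I2, the isoform linked to hypoxia, had signals of 192, 10.9 and 38.4 on control and 142, 10.9 and 8.13 on miR21 arrays. COX6A2, the muscle isoform, had 115, 41.9 and 7.59 on control and 169, 56.4 and 17.3 on miR21 arrays, higher in each number with groups that overlapped. COX8C had 19.9, 3.14 and 1.13 on control and 1.60, 1.10 and 2.23 on miR21 arrays. The last member below the filter was ATP5MF of complex V, with 40.7, 42.3 and 87.8 on control and 26.4, 14.8 and 14.1 on miR21 arrays, which did not overlap. MAS5 signals this dim are noisy on the log scale, and no member below the filter entered the counts. ATP5MF was read by 1 probe set only, because a further one also names ARMC2-AS1 and was not used. COXFA4, known for long as NDUFA4 and counted today with complex IV, has a symbol outside the rule. It differed by -0.14, and adding it left the complex IV median at -0.020.

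In complex V the lowest measured members above the filter were ATP5MC1 and ATP5MC3, both genes of the ring. The membrane ring is built from subunit c, which 3 genes encode as the same mature protein. ATP5MC1 had signals of 4170, 5118 and 6867 on control and 2005, 2814 and 6548 on miR21 arrays. The miR21 arrays of numbers 1 and 2 were the lowest of the 6, and number 3 hardly differed, with -1.06, -0.86 and -0.069 in the 3 numbers. The difference was -0.66 (SE 0.47), 1.58-fold lower, and it did not pass limma with the block (adjusted p = 0.161). ATP5MC3 was lower by similar amounts in each number (-0.32, -0.20 and -0.25), and its 2 dimmer probe sets differed by -0.28 and -0.52. ATP5MC2 differed by -0.077. Of the catalytic head, ATP5F1A differed by -0.045, ATP5F1B by -0.0035, ATP5F1C by 0.066 and ATP5F1E by -0.20, and ATP5PO of the peripheral stalk by -0.051. ATP5MJ, a small subunit of the membrane part, had the highest difference of the complex, 0.10.

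**Figure D4:**
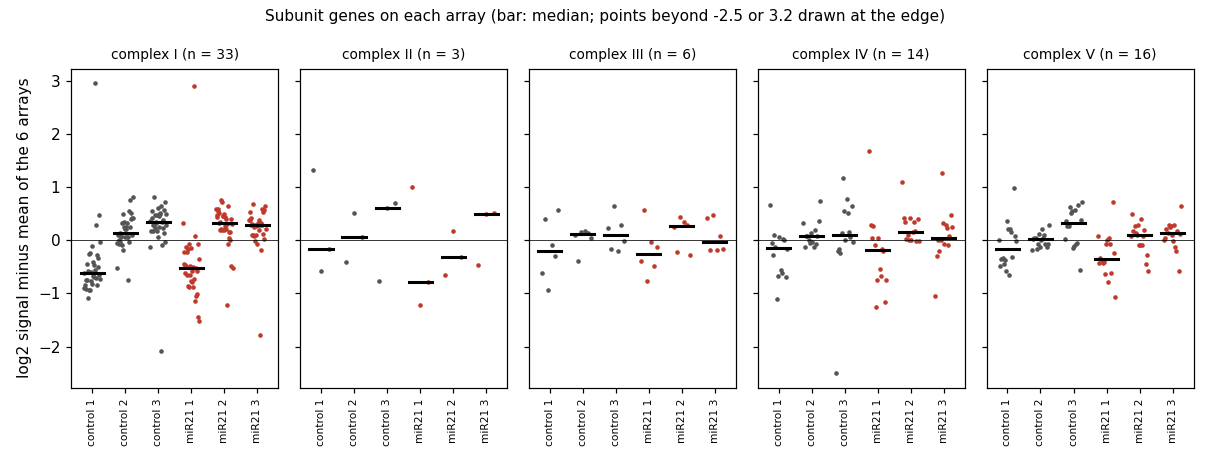
Log2 signal minus the mean of the 6 arrays (vertical axis) for the genes of complexes I to V on each array; each point is a gene, grey for control and red for miR21, and bars are medians. The medians of complex I lie at -0.62 and -0.52 on the 2 arrays of number 1 and between 0.13 and 0.34 on the other 4.

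Read by their brightest probe sets, the subunits differed more between replicate numbers than between the groups. Both arrays of number 1 lay below the other 4 for 46 of the 72 members, against 28.9% of all genes, and above them for 8, against 27.2%. The median of number 1 minus the other 2 numbers was -0.69 on the log2 scale for members and -0.036 for all genes. Among the 8189 genes above the upper quartile of probe set signal, which include 70 members, it was -0.28, with 38.3% below and 19.8% above. Complex I was lowest, with -0.91 and 27 of 33 genes below, and complex IV was -0.18 with 7 of 14 below. After quantile normalization the members' median was -0.31 and that of all genes -0.20, with -0.63 for complex I and 0.17 for complex IV. With arrays centred on their median it was -1.75 for members, -1.10 for all genes, -1.98 for complex I and -1.25 for complex IV. Complex I lay below complex IV under each of these scalings, all with the brightest probe set per gene. The sign for complex IV was not the same in all scalings, and neither that order nor that sign was tested. NDUFA5, chosen after its values were seen, went the other way: its signal was 2587 and 2478 on the control and miR21 arrays of number 1 and 79.1 to 198 on the other 4. SDHD (1.74), ATP5F1E (1.28) and UQCRB (0.72) also lay above the other 4 arrays in number 1. The direction depended on the probe set for some members. The brightest and the next probe set gave -1.10 and 0.63 for NDUFB2, and -0.92 and 0.82 for ATP5PO. For COX5B they gave 0.17 and -0.95. In other members both went the same way, as in COX4I1 (-1.08 and -0.97) and NDUFA11 (-0.32 and -0.99). The median signal over all probe sets was higher on the 2 arrays of number 1 (125 and 117) than on the other 4 (55.2 to 61.9). Its part in the differences between replicate numbers was not tested.

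Promoters were searched because members sharing a pathway can share sequence motifs. RefSeq windows of GRCh38.p14, the first listed per gene and reaching from 250 bases before to 50 after the start, were found for 65 of the 76 members. The NRF1 motif GCGCANGCG, read on both strands, was in 22 of them (33.8%), against 11.02% of 15843 protein-coding genes. The ETS motif CCGGAAG was in 18 (27.7%, against 14.2%), and the YY1 motif AAGATGGCG in 7 (10.8%, against 2.74%). The 15843 genes were not limited to those above the signal filter, and no match for signal or base composition was made. Whether these shares are particular to the subunits was therefore not tested. The 21 measured members with the NRF1 motif had a median difference of -0.052 and the 42 without it -0.017. For the ETS motif the medians were -0.056 over 18 and -0.014 over 45 genes, and for the YY1 motif -0.027 over 7 and -0.033 over 56. The motifs were thus spread over members whose medians lay close together. The 120 bases before the start are shown for the 2 members whose groups did not overlap and for SDHA and ATP5MC1, with any motif match in capitals. They lie at chr22:42090773-42090892 (minus strand), chr22:29767249-29767368, chr5:218200-218319 and chr17:48892667-48892786.
NDUFA6: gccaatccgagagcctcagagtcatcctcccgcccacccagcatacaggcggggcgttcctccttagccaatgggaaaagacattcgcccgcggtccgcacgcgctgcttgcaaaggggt
UQCR10: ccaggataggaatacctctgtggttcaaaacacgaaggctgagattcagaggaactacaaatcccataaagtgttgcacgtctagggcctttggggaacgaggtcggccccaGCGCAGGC
SDHA: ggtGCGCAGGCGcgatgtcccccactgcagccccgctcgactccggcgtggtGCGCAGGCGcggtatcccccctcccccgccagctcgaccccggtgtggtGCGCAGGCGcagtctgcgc
ATP5MC1: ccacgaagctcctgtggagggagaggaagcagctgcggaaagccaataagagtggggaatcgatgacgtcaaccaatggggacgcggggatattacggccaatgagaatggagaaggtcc

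SDHA has the NRF1 motif at -117, -68 and -19 in this stretch and at -166 before it, counted from the base before the start as -1. The match in UQCR10 begins at -8 and ends on the start base, which lies just outside the stretch. NDUFA6 has no match in the stretch, but the YY1 motif begins at 26 after the start, counted from 1, shown with its neighbours (chr22:42090729-42090757, minus strand).
NDUFA6 start: atgctttggcAAGATGGCGgggagcggcg

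The window of ATP5MC1 holds none of the 3 motifs. A match is a description of the letters and not a bound site.

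Other genes of the pathway gave no calls. Of 94 listed genes, 79 were on the array under their own symbol and passed the filter, and the 13 mitochondrially encoded subunits were not among them. Limma called 0 of the 79 with or without the block, and 0 without the block and 12 with it (15.2%, against 20.1% of all genes) had an unadjusted p under 0.05. The 14 complex I assembly genes had a median of -0.10, with NDUFAF5 (-0.36) and NDUFAF8 (-0.33) lower and NDUFAF2 (0.34) higher in each replicate number. The 22 complex IV assembly genes had a median of 0.036, with 11 higher and 11 lower, and 5 were higher and 5 lower in every replicate number. LRPPRC, which stabilises mitochondrial mRNA, differed by 0.52, the haem A factor SURF1 by 0.53 and the copper protein gene COX19 by 0.94, all higher in each number and with the smallest block p of the list. On the lower side COX17, a copper chaperone gene, differed by -0.69 and COA1 by -0.41, both lower in each number and chosen after their values were seen. COX17 and COX19 were dim, with signals of 52.4 to 132 and 94.5 to 326 over the arrays. In number 3 SURF1 and COX19 differed by only 0.0685 and 0.0839. Of the 6 complex III assembly genes (median -0.14), LYRM7 differed by -0.81 and TTC19 by 0.49, the latter with groups that did not overlap. Among the 79 genes only TTC19, ATPAF1 and the regulator GABPB1 had such groups, against 6.65% of all genes. The 5 complex V genes (median -0.041) included ATPAF1 (-0.48), which binds the beta subunit and was lower with groups that did not overlap. That separation was narrow, since in number 3 its signal was 1799 on the control and 1791 on the miR21 array. Its brightest probe set outside the _x_at and _s_at types differed by 0.28. The 4 assembly genes of complex II (median 0.052) included SDHAF1 (0.082).

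Regulators and neighbours of the chain gave small differences. The 12 regulators of mitochondrial biogenesis had a median of 0.12, with 8 higher and 4 lower, and POLRMT, the mitochondrial RNA polymerase, had the smallest block p (difference 0.32). The 11 measured genes of the tricarboxylic acid cycle had a median of -0.029, with IDH3B at -0.36, and the 5 electron carrier genes one of -0.025, with ETFDH at -0.36.

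Without replicate number 3 limma with the block called 18 of 73 members (24.7%), 7 higher and 11 lower, against 33.2% of all genes. Only 1 residual degree of freedom is left in that fit. Among its calls were NDUFA6, NDUFB9, NDUFV2, NDUFS3, NDUFS7 and COX5B on the higher side and ATP5MC1, NDUFB3, NDUFB7, SDHA, SDHC, UQCR10 and COX7B2 on the lower. Without number 1 or without number 2 it called 0 members.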

How the data were processed

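Biotin-labelled RNA was hybridised to U133 Plus 2.0 arrays, per the labels' protocols. Per the submitters' processing notes the authors used MAS5; no label used here gives its version or settings. Each probe set's deposited value is a linear intensity, with every array scaled to one trimmed mean. They were taken as log2 with no pseudocount. Of 54675 probe sets, 41091 name 1 gene; the brightest stood for each gene, and genes under the median (log2 6.03) were left out, which kept 12206. The groups were compared over all of these with limma 3.58.1 in R 4.3.3 (variance trend, Benjamini-Hochberg adjustment at 0.05), without a block; steps were tested on simulated data. Single values had exact permutation tests.

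Replicate numbers come from the titles. Deviations from the group means correlated between arrays sharing a number (r = 0.899, 0.638 and 0.635 for numbers 1, 2 and 3), so the fit with the number as a block is printed beside results. Crossing numbers 2 and 3 also gave correlations above 0.1 (0.283 and 0.411), so the pairing rests on the titles.

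Members and lists were chosen with earlier results of these data known. Named were core and isoform genes by role, the 2 highest and 2 lowest per complex, members of one sign in every number with an unadjusted block p under 0.05, and up to 3 genes per pathway list. Alternatives were 2 scalings, 16 added to each signal, array weights, an untrended variance, other filters and probe set rules, the block, and arrays left out. The planned count of NDUFA4 in complex I was not run, since the annotation names it COXFA4; adding it to complex IV was chosen after seeing the data.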

Additional observations from a re-analysis of the deposited data

How the results depend on the processing

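Members called by limma stayed at 0 under every alternative except the replicate block without number 3 (18); with the replicate block over all arrays the count was 0. Leaving out 1 array moved the median over members between -0.22 (control replicate 1) and 0.21 (miR21 replicate 1), complex I between -0.30 and 0.31 (the same arrays), complex II between -0.70 and -0.10, complex III between -0.13 and 0.13, complex IV between -0.10 and 0.19, and complex V between -0.15 and 0.12. So the sign of each of these medians but that of complex II rests on single arrays. With the brightest probe set outside the _x_at and _s_at types, complex II had a median of 0.35. Members whose groups do not overlap numbered 3 to 11 with 1 array left out (4.23% to 15.3%, against 9.61% to 21.5% of all genes). They numbered 0 with arrays centred on the median (3.3% of all genes) and with that probe set rule (7.29%). Without number 1, 2 or 3 they numbered 11, 5 and 14 (15.5%, 7.04% and 19.2%, against 26.3%, 13.7% and 28.9%). The cause of these moves was not tested; fewer arrays make non-overlap easier.

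Of 967 values of single genes under alternatives, 816 kept sign and side of the threshold, 24 passed it without number 3, and 127 had the other sign, mostly of genes near 0. With arrays centred on the median these were ATP5F1A (0.054), ATP5F1B (0.096), ATP5MC2 (0.022), ATP5PO (0.048), COX4I1 (0.092), COX6A1 (0.038), COX7A1 (0.095), NDUFA5 (0.023), NDUFAB1 (0.090), SDHD (0.012), UQCRQ (0.020). With array weights: ATP5F1A (0.10), ATP5F1B (0.22), ATP5MC2 (0.026), ATP5PO (0.056), COX4I1 (0.12), COX6A1 (0.0061), COX7A1 (0.17), COX7A2 (-0.075), NDUFAB1 (0.038), SDHAF1 (-0.15), UQCRQ (0.010). With quantile normalization: ATP5F1B (0.012), COX4I1 (0.0038), COX5A (-0.019), COX7A1 (0.037), NDUFV1 (-0.017), SDHAF1 (-0.068). With the mean of all probe sets: ATP5F1C (-0.16), ATP5PO (0.10), COX5A (-0.13), NDUFA5 (0.38), NDUFV1 (-1.08), POLRMT (-0.12), UQCRC2 (-0.10). With the brightest probe set outside the _x_at and _s_at types: ATP5F1C (-0.70), ATPAF1 (0.28), COX5A (-0.27), COX5B (-0.027), NDUFB7 (0.37), SDHC (0.79). Without number 1: ATP5F1C (-0.011), COX4I1 (0.025), COX5A (-0.0067), COX7A1 (0.07), COX7A2 (-0.022), NDUFAB1 (0.0079), NDUFS1 (-0.0077), NDUFV1 (-0.023), SDHAF1 (-0.013), SDHD (0.030). Without number 2: ATP5F1C (-0.13), COX5A (-0.037), NDUFA5 (0.11), NDUFV1 (-0.13), SDHAF1 (-0.076). Without number 3: ATP5F1A (0.058), ATP5F1B (0.16), ATP5MC2 (0.019), ATP5PO (0.059), COX4I1 (0.11), COX6A1 (0.052), NDUFAB1 (0.049), SDHAF1 (-0.12). With 1 array left out, the sign changed in these ranges: ATP5F1A (-0.24 to 0.19), ATP5F1B (-0.22 to 0.31), ATP5F1C (-0.16 to 0.33), ATP5F1E (-0.61 to 0.25), ATP5MC2 (-0.42 to 0.30), ATP5PO (-0.36 to 0.26), COX4I1 (-0.35 to 0.37), COX5A (-0.055 to 0.077), COX5B (-0.078 to 0.55), COX6A1 (-0.39 to 0.26), COX6B1 (-0.60 to 0.33), COX7A1 (-0.63 to 0.63), COX7A2 (-0.079 to 0.16), COXFA4 (-0.34 to 0.15), NDUFA5 (-1.54 to 1.38), NDUFAB1 (-0.11 to 0.062), NDUFAF8 (-0.56 to 0.0017), NDUFB7 (-0.84 to 0.28), NDUFS1 (-0.37 to 0.58), NDUFS3 (-0.16 to 0.60), NDUFS7 (-0.041 to 0.57), NDUFV1 (-0.41 to 0.39), SDHAF1 (-0.26 to 0.33), SDHC (-0.75 to 0.15), SDHD (-0.61 to 0.55), SURF1 (-0.076 to 0.97), UQCRB (-0.16 to 0.33), UQCRC1 (-0.35 to 0.50), UQCRC2 (-0.066 to 0.44), UQCRQ (-0.25 to 0.15). NDUFA6, NDUFV2 and UQCR10 kept their sign under every alternative run, as did NDUFB3, SDHA and ATP5MC1 except that they have no value without the _x_at and _s_at types. The number of arrays, and signal near background for COX6B2, limit what can be told.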
